A study of Caenorhabditis elegans with 4 samples.

Results

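The sites described here are the binding sites of the transcription factor GEI-11 on chromosome IV of Caenorhabditis elegans embryos, taken as every entry on that chromosome in the list of peaks combined from both ChIP replicates. There were 261 of them among 1539 combined sites, and the other chromosomes held 1278. All 261 were kept. They were divided by their midpoint into a left domain from 4500000 to 7000000 bp (40 sites), a right domain from 13500000 to 17000000 bp (78 sites) and the remainder of IV (143 sites), called elsewhere on IV. Positions are on genome build WS220.

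GEI-11, also named SNPC-4, is a Myb-domain DNA-binding protein that belongs to SNAPc, the complex through which snRNA and spliced-leader RNA genes are transcribed. In worms it also acts at piRNA genes, which are short transcription units that encode small RNAs of the germline silencing pathway. Most worm piRNA genes lie in a pair of broad clusters on chromosome IV, which is why that chromosome was divided as above. In the RefSeq gene table of assembly WBcel235, 14714 of 15363 annotated piRNA genes (95.8%) are on IV, as are 41 of 129 snRNA genes. The windows have round edges and are an approximation of those clusters.

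The animals were hermaphrodite embryos of strain OP179, grown at 20 °C. They carried the mutation unc-119(ed3) and the transgene wgIs179, made by bombardment, which supplies unc-119(+) as the rescue marker together with gei-11 fused to TY1, EGFP and 3xFLAG tags. Chromatin was precipitated with antibodies against GFP in 2 ChIP samples, and 2 input samples of total DNA came from extract of the same strain. The transgene was thus present in all 4 samples, and none of them is an untagged strain. Whether the numbered replicates were separate cultures is not stated in the labels. The values are peak positions and the authors' own score for each peak, which serves here only to order peaks within a list. Read depth is unknown, so intervals cover counting error only, and since neighbouring sites are not independent no p-value was computed from them. No sample of another stage or strain enters, so the data allow no test over samples.

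The right domain carried the most sites per Mb. It held 78 sites in 3.5 Mb, or 22.3 per Mb (exact Poisson 95% interval 17.6 to 27.8), against 12.4 per Mb elsewhere on IV (10.5 to 14.7). The ratio of these densities was 1.79 (exact conditional 95% interval 1.34 to 2.38). The left domain held 16 sites per Mb (11.4 to 21.8), 1.29 times the density elsewhere, and its interval of 0.882 to 1.84 includes equal density. The left domain had 0.718 times the density of the right one (interval 0.478 to 1.06), so the domains were not separated from each other by counting error.

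The remainder of IV was itself uneven. Before the left domain, in the first 4.5 Mb, there were 69 sites, or 15.3 per Mb (11.9 to 19.4). Between the domains there were 72 sites in 6.5 Mb, or 11.1 per Mb (8.67 to 13.9), and 2 sites followed the right domain. Set against the stretch before it, the left domain had 1.04 times the density (interval 0.689 to 1.56), and set against the stretch between the domains 1.44 times (0.956 to 2.16). The right domain exceeded both stretches, by 1.45 times (1.04 to 2.04) and by 2.01 times (1.44 to 2.81).

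**Figure D1:**
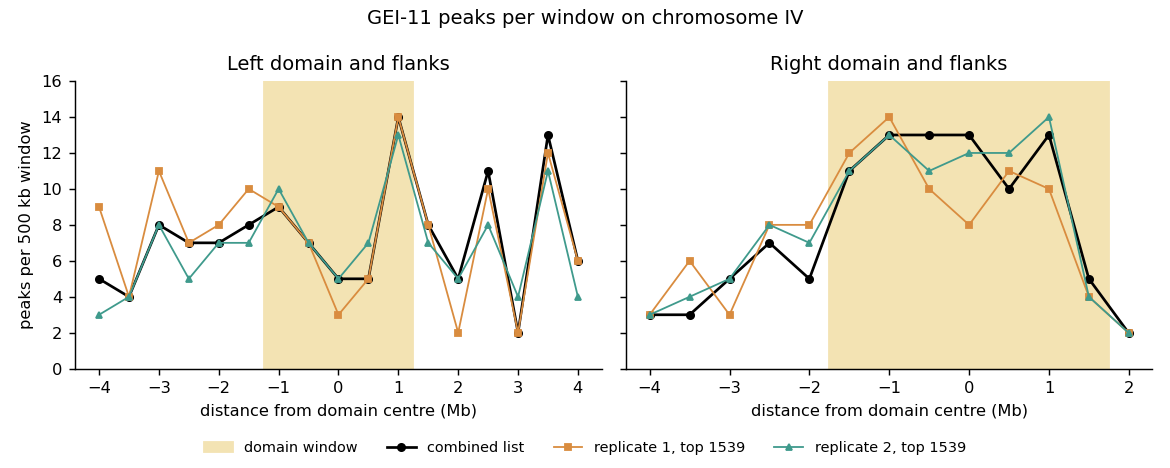
Peaks per 500 kb window (y axis) by distance of the window's centre from the centre of the left or the right domain in Mb (x axis), for the combined list (black) and the 1539 highest-ranked peaks in replicate 1 (orange) and in replicate 2 (green); shading marks the domain. The right domain forms a plateau of 10 to 13 combined sites in 6 of its windows, while the left domain has 14 in its last window and 5 in each of the 2 windows before it.

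The domains filled differently along their length. In 500 kb windows the right domain held 11, 13, 13, 13, 10 and 13 combined sites along its first 6 windows, then 5 in its last. The left domain held 9, 7, 5 and 5 sites and then 14, so its best-filled window, from 6.5 to 7 Mb, lay at its right edge. When each window was narrowed by 500 kb on both sides, the left domain was at 0.84 times the density elsewhere (interval 0.479 to 1.38), and the right domain was at 1.84 times (1.36 to 2.47). Narrowing counts the trimmed stretches of both domains as elsewhere, so the density they are compared with changed as well. The left-domain interval included equal density with either window. Its higher counts, 9 and 14, were in its first and last windows.

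The best-filled windows of IV were not confined to the domains. The window at 6.5 to 7 Mb and the first window of the chromosome, from 0 to 0.5 Mb, each held 14 sites. Another 5 windows held 13, of which 4 lay in the right domain and 1 lay between the domains, from 9 to 9.5 Mb. The count at 9 to 9.5 Mb includes an interval that is listed 2 times. Of the 14 sites in the first window 5 had the highest score, against 11 of the 14 at 6.5 to 7 Mb. The median window held 7 sites in the left domain and 13 in the right domain, against 6 elsewhere on IV, where single windows ranged from 1 to 14.

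The replicates were close in some of the fullest windows and apart in others. The window at 6.5 to 7 Mb had 14 of the 1539 highest-ranked peaks in replicate 1 and 13 in replicate 2, and the window at 9 to 9.5 Mb had 12 and 11. The 7 windows of the right domain ran from 4 to 14 top peaks in either replicate. The widest differences in that domain were at 15 to 15.5 Mb, with 8 top peaks in replicate 1 and 12 in replicate 2, and in the next window but one, with 10 and 14. Before the left domain, the window at 1.5 to 2 Mb had 9 top peaks in replicate 1 and 3 in replicate 2.

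The longest stretches without a site lay mostly between the domains. Singled out after the values were seen, they ran between sites ending at 10484144 and starting at 10935957 (452.2 kb between midpoints), and between 10117142 and 10483745 (367 kb). A gap of 392 kb lay before the left domain. Within the domains the longest gaps were 231 kb on the left and 229.8 kb on the right. A gap of 303 kb ran from the last site of the right domain across its right edge. Gaps above 100 kb numbered 12 of 39 in the left domain and 7 of 77 in the right domain. They numbered 39 of 140 elsewhere on IV and 330 of 1533 over all combined sites.

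The density of the right domain was set beside the densest stretches of equal length on all chromosomes. On IV the fullest 3.5 Mb held 80 sites, from 13.4 to 16.9 Mb, and so nearly coincided with the right domain. The fullest stretch of that length held 154 sites on X, 107 on II, 76 on III, 72 on I and 56 on V. For a length of 2.5 Mb the fullest stretch of IV held 63 sites and lay inside the right domain, above the 40 of the left domain. The fullest 2.5 Mb held 128 on X, 83 on II, 58 on III, 53 on I and 43 on V. The fullest stretches were picked by a search along each chromosome, whereas the domain windows were fixed, so these counts cannot rank the domains. IV as a whole had 14.9 sites per Mb (13.2 to 16.9), against 15.4 per Mb (14.6 to 16.3) on the other chromosomes.

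How the regional pattern varied with peak rank was read from the replicate lists, each of which holds 30000 peaks of falling score. In the right domain the ratio of density to elsewhere on IV was 1.42 (0.782 to 2.48) for the 500 highest-ranked peaks in replicate 1, and 1.74 (1.04 to 2.86) in replicate 2. At 1539 peaks it was 1.50 in replicate 1 (1.11 to 2.01) and 1.86 in replicate 2 (1.39 to 2.48). At 3000 peaks it was 1.53 and 1.49, and at 10000 peaks 1.15 and 1.25. Over all 30000 peaks it was 0.959 (0.891 to 1.03) in replicate 1 and 1.11 (1.04 to 1.19) in replicate 2. The right domain was thus fuller than elsewhere among high-ranked peaks in both replicates, and the ratio was nearest to 1 with all peaks included.

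The left domain showed its highest ratios at the top of the lists, within the ties at the highest score. Among the 500 highest-ranked peaks it had 1.67 times the density elsewhere in replicate 1 (0.88 to 3.02) and 1.97 times in replicate 2 (1.12 to 3.35). The ratio was 1.16 (0.788 to 1.66) and 1.42 (0.98 to 2.02) at 1539 peaks, and 0.945 (0.867 to 1.03) and 0.984 (0.906 to 1.07) over all 30000. Among combined sites at the highest score the left domain held 12 per Mb, against 7.31 per Mb elsewhere (ratio 1.64, interval 1.04 to 2.52). The right domain held 12.6 per Mb of such sites (ratio 1.72, 1.17 to 2.51). At the highest score the domains were therefore close in density, while sites of lower score numbered 10 in the left domain and 34 in the right domain.

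**Figure D2:**
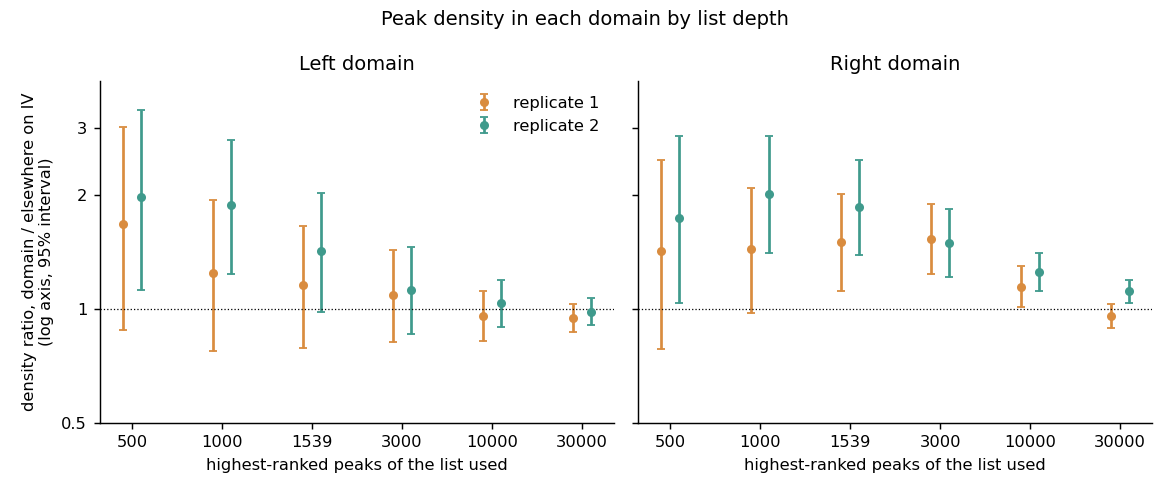
Ratio of peak density in the left or right domain to density elsewhere on IV (y axis, log scale, no unit) for the 500 to 30000 highest-ranked peaks (x axis) of replicate 1 (orange) and replicate 2 (green); bars are exact conditional 95% intervals for counting error. The right domain lies between 1.42 and 2.02 in both replicates down to 3000 peaks, and both domains come near 1 at 30000 peaks. The 500 highest-ranked peaks of each replicate tie in score and are ordered by peak number alone.

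The weakest peaks showed no such excess. Among peaks ranked 10001 to 30000, the right domain had 0.874 times the density elsewhere in replicate 1 (0.797 to 0.958) and 1.04 times in replicate 2 (0.959 to 1.14). The left domain had 0.938 times (0.846 to 1.04) and 0.959 times (0.866 to 1.06). Per 100 peaks of the full replicate 1 list, the combined list held 6.05 sites in the left domain and 8.30 in the right domain, against 4.45 elsewhere on IV. The corresponding values for replicate 2 were 5.63 and 6.95, against 4.31. Over all of IV the values were 5.42 for replicate 1 and 5.07 for replicate 2. Over all chromosomes there were 1539 combined sites to 30000 peaks in each replicate.

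Sites of the left domain most often had the highest score. The combined scores have a ceiling of 3.24, which 158 of the 261 sites on IV shared (60.5%, exact Clopper-Pearson 95% interval 54.3 to 66.5%), beside 55.6% of all combined sites. The share was 75% in the left domain (30 of 40, interval 58.8 to 87.3%) and 56.4% in the right domain (44 of 78, 44.7 to 67.6%), against 58.7% elsewhere on IV (84 of 143, 50.2 to 66.9%). These intervals overlap. Sites below the ceiling scored 1.97 to 2.46 in the left domain and 1.76 to 2.80 in the right domain, against 1.73 to 2.79 elsewhere, with medians of 2.38, 2.37 and 2.36. Sites below the ceiling thus had similar median scores in all regions.

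The left domain also had the best median rank. Ties at the ceiling were ordered by the authors' peak number. The median rank among all combined sites was 437.5 in the left domain and 736.5 in the right domain, against 757 elsewhere on IV and 783.5 on the other chromosomes. Elsewhere on IV held 54.8% of all sites on the chromosome (143 of 261). Of the 10 best-ranked sites on IV, 2 were in the left domain and 1 in the right domain, against 7 elsewhere. Of the 25 best-ranked, 6 were in the left domain and 5 in the right domain, against 14 elsewhere. Of the 100 best-ranked, 23 were in the left domain and 27 in the right domain, against 50 elsewhere.

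The 5 highest-ranked sites of the left domain were led by the one at 6117725 to 6118135, which ranked 26 in the combined list, 23 in replicate 1 and 30 in replicate 2. The site at 4880661 to 4881127 ranked 36, 35 and 31 in these lists. Those at 4930747 to 4931069, at 5317288 to 5317537 and at 4864612 to 4864913 followed with combined ranks of 81, 96 and 106. For all 5, the midpoints of the replicate peaks lay within 18.5 bp of each other. Of these sites 3 belonged to pairs with a neighbour less than 5 kb away.

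In the right domain the highest-ranked site was at 14326959 to 14327358, with rank 49 in the combined list, 44 in replicate 1 and 60 in replicate 2. The next were at 14013716 to 14014006 (combined rank 86), at 13600647 to 13600918 (95), at 13893142 to 13893441 (99) and at 14863773 to 14864057 (102). Their replicate ranks ran from 90 to 102 in replicate 1 and from 88 to 115 in replicate 2. All 5 lay in the part of the domain before 15 Mb, and none was wider than 400 bp.

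Elsewhere on IV the 4 leading sites ranked higher than any in the domains. The site at 8428532 to 8429016 ranked 15 in the combined list, 17 in replicate 1 and 15 in replicate 2. It was followed by 9511244 to 9512037 (combined rank 17) and 9444300 to 9444854 (combined rank 20), both between the domains. The other named sites were at 866962 to 867383 (rank 24) and 657930 to 658316 (rank 41), both before the left domain. The interval at 9511244 was 794 bp wide, the widest of IV, and 1 of 2 intervals that the combined list gives 2 times on this chromosome. The other was 9444300 to 9444854.

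The most frequent width was 400 bp. Of the 261 sites 55 were narrower than 400 bp (21.1%, interval 16.3 to 26.5%), beside 18.5% of all combined sites. The share was 30% in the left domain (16.6 to 46.5%) and 19.2% in the right domain (11.2 to 29.7%), against 19.6% elsewhere (13.4 to 27%). Only 8 entries were wider, 3.07%, beside 3.12% of all combined sites. They numbered 2 in the left domain and 0 of 78 in the right domain, where the exact interval allows up to 4.62%, against 6 elsewhere on IV. All 8 had the highest score, and ranked from 15 to 156. Those elsewhere include 2 intervals that are each listed 2 times, with second entries at ranks 120 and 156.

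The median gap between midpoints was 25.3 kb in the left domain (95% order-statistic interval 17 to 99.3) and 27.3 kb in the right domain (16.7 to 35.9), against 41.9 kb elsewhere on IV (29.9 to 57.2). Over the other chromosomes it was 33.9 kb. The left domain was split between short and long gaps, with an upper quartile of 113 kb, against 59.7 kb in the right domain and 112 kb elsewhere. The intervals of the medians overlap between regions, and gaps in the right domain covered a narrower range between quartiles than in the left one. For the left domain the order depended on the window edges, as its median gap was 43.1 kb, against 35.1 kb elsewhere, with windows widened by 500 kb, and 62.7 kb, against 41.4 kb, with windows narrowed by as much. Among sites at the highest score alone the median gap was 60.8 kb in the right domain, against 61.1 kb elsewhere. The share of short gaps was close in all regions, since 7 of 39 gaps in the left domain and 14 of 77 in the right domain were under 5 kb, against 25 of 140 elsewhere.

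**Figure D3:**
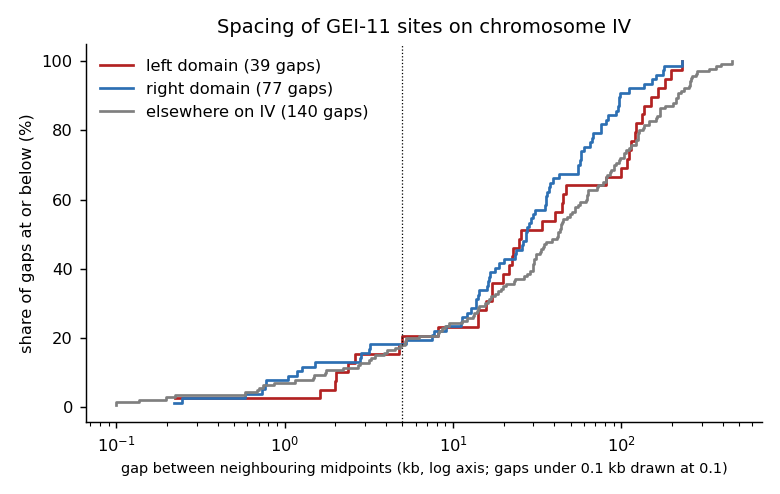
Cumulative share of gaps in percent (y axis) by the gap between neighbouring midpoints in kb (x axis, log scale) for the left domain (red), the right domain (blue) and elsewhere on IV (grey); the dotted line marks 5 kb. The curves meet near 5 kb and separate above 10 kb, where the right domain reaches its upper quartile at 59.7 kb, against 112 kb elsewhere.

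Clusters, defined as runs of sites whose midpoints each lie within 5 kb of the next, held 79 of the 261 sites on IV (30.3%, interval 24.8 to 36.2%), beside 28.7% of all combined sites. The share was 35% in the left domain (14 of 40, 20.6 to 51.7%) and 30.8% in the right domain (24 of 78, 20.8 to 42.2%), against 28.7% elsewhere (41 of 143, 21.4 to 36.8%). The 33 clusters comprised 25 pairs, 4 of 3 sites, 3 of 4 and 1 of 5. All 7 clusters of the left domain were pairs. All 4 clusters of 3 lay in the right domain, while all 4 clusters of 4 or more lay between the domains.

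The largest cluster spanned 9508620 to 9513808, with 5 entries that all had the highest score and ranked from 17 to 691. Part of its size came from the listing, as it holds the repeated interval and a pair of overlapping entries, so its 5 entries form 3 separate regions. The cluster at 8428532 to 8433073 held 4 separate regions. The first and the last of them, with ranks 15 and 141, had the highest score, and the inner ones ranked 1483 and 1015. The clusters at 9440934 to 9445637 and at 12781839 to 12787415 listed 4 entries each and formed 3 separate regions each. The 4 entries of the last one ranked from 90 to 155 in the combined list, which made it the cluster of 4 with the most even ranks.

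In the right domain the cluster of 3 with the shortest span from first to last base, 1607 bp, ran from 13600647 to 13602253, and its sites did not overlap. By midpoints, the cluster of 3 at 15434265 to 15435949 was shorter, at 1285 bp against 1350 bp, and it formed 2 separate regions. The sites of the first ranked 95, 573 and 126 in the combined list. They ranked 102, 706 and 133 in replicate 1, and 96, 537 and 132 in replicate 2. Both replicates thus ranked the middle site lowest. All 3 tie at the highest score in every list, so peak number alone set this order. Each replicate had 3 of its top 1539 peaks within that cluster. With overlapping entries joined, IV had 253 separate regions, of which 68 (26.9%) lay in 30 clusters. Of these clusters 1 held 4 regions and 6 held 3, with 3 of these 6 in the right domain. Clusters of 4 or more joined regions numbered 4 on II, 3 on V, 2 on III and 1 each on I and X.

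Clustered sites had the highest score in 67.1% of cases (53 of 79), against 57.7% (105 of 182) of the single sites on IV. On the other chromosomes these shares were 59.8% of 363 clustered sites and 52.6% of 915 single sites. Repeated and overlapping entries were counted separately in these shares, and no interval was computed for them. Of the 33 clusters on IV, 13 had every entry at the highest score and 3 had none. Among sites at the highest score alone, 40% were clustered in the left domain and 15.9% in the right domain (interval 6.64 to 30.1%), so most short gaps of the right domain involved a site of lower score.

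Nearly every site on IV was present in both replicate lists. Overlap of at least 1 bp was found in both for 258 of 261 sites (98.9%), beside 99.1% of all combined sites. This held for all 118 sites of the domains, against 140 of 143 elsewhere. The 3 exceptions had no peak in replicate 1 and ranked 361 to 480 in replicate 2. They were at 409609 to 410008, at 7230172 to 7230571 and at 8432054 to 8432453, the last being an inner member of the cluster that starts at 8428532.

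A stricter reading used the 1539 highest-ranked peaks of each replicate, as many as the combined list holds. In replicate 1 these overlapped 203 sites on IV (77.8%), beside 77.6% of all combined sites, and in replicate 2 they overlapped 206 (78.9%), beside 77.1%. Both replicates had a top peak at 154 sites of IV (59%, interval 52.8 to 65%), beside 58.4% of all. The share found in both was 72.5% in the left domain (29 of 40, 56.1 to 85.4%) and 53.8% in the right domain (42 of 78, 42.2 to 65.2%), against 58% elsewhere (83 of 143, 49.5 to 66.2%). The intervals of the 3 regions overlap.

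The replicates differed in which regions they ranked high. In the right domain 20 sites (25.6%) were in the top list of replicate 2 only and 14 (17.9%) in that of replicate 1 only. Over all combined sites these shares were 18.7% and 19.2%. Before the left domain the order was the other way, with 8 (11.6%) in replicate 2 only and 20 (29%) in replicate 1 only. Between the domains the counts were 17 (23.6%) and 11 (15.3%). The median site of the right domain ranked 650 in replicate 2 and 1021 in replicate 1. The median site before the left domain ranked 1048 in replicate 2 and 769 in replicate 1. Sites ranked better in replicate 2 made up 55% of the left domain (22 of 40, 38.5 to 70.7%) and 55.1% of the right domain (43 of 78, 43.4 to 66.4%), against 44.1% elsewhere on IV (63 of 143, 35.8 to 52.6%). Over all combined sites the share was 49.1%. The 3 intervals overlap, and each includes this share.

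**Figure D4:**
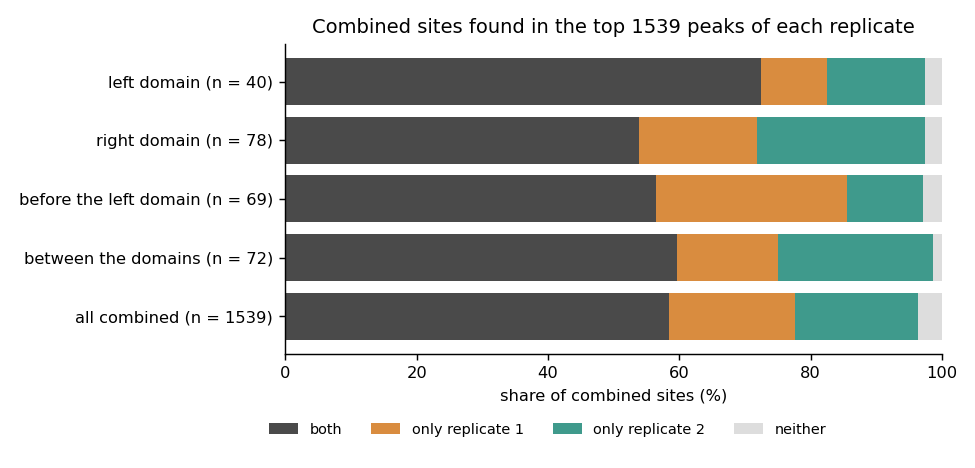
Share of combined sites in percent (x axis) that overlap one of the 1539 highest-ranked peaks of both replicates, of replicate 1 only, of replicate 2 only or of neither, for each domain, for the stretches before and between the domains and for all combined sites (y axis). Sites found in replicate 1 only make up 17.9% of the right domain, against 29% of the stretch before the left domain.

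This difference also appeared among sites at the highest score. All 74 such sites of the domains had a top peak in replicate 2, and 60 of them had one in replicate 1. In the right domain alone these counts were 44 of 44 and 34 of 44 (77.3%). Elsewhere on IV 77 of 84 (91.7%) had a top peak in replicate 2 and 79 (94%) in replicate 1. On the other chromosomes the shares were 94.1% and 95.3%. Among sites of lower score the domains showed no such tilt to replicate 2, since 18 of 34 in the right domain had a top peak in replicate 2 and 22 in replicate 1. Before the left domain 14 of 33 lower-score sites had a top peak in replicate 2 and 25 in replicate 1. The counts between the domains were 18 of 26 and 10, so tilts also occurred outside the domains. The depth of each library is unknown, and its part in these differences was not tested.

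**Figure D5:**
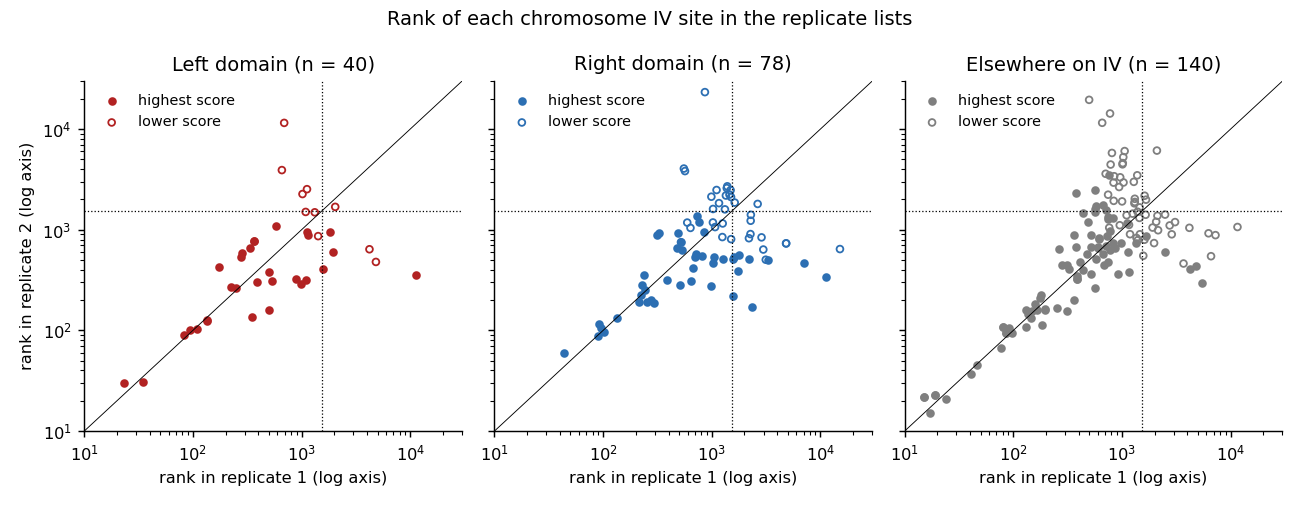
Rank in replicate 2 (y axis, log scale) by rank in replicate 1 (x axis, log scale) for the sites of the left domain, of the right domain and elsewhere on IV that have a peak in both; filled points have the highest combined score, the dotted lines mark rank 1539 and the diagonal marks equal rank. In both domains every filled point lies below the horizontal dotted line, while in the right domain 10 filled points lie right of the vertical one.

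A few sites of the domains had far apart ranks. Chosen after the values were seen, the site at 16471570 to 16471969 in the right domain had the highest combined score, and ranked 339 in replicate 2 and 11149 in replicate 1. The site at 6321678 to 6322077 in the left domain also had the highest score, with ranks 358 and 11305. At 15570671 to 15571070 the ranks were 643 in replicate 2 and 15128 in replicate 1. Other sites ranked better in replicate 1, such as 16143656 to 16144055 in the right domain, with 23276 in replicate 2 and 865 in replicate 1, and 5318834 to 5319233 in the left domain, with 11517 and 692. Neither of these had the highest score. A rank outside the top 3000, or no peak, was found for 7 of 78 right-domain sites in replicate 1 and 3 in replicate 2. Elsewhere on IV the counts were 13 and 15 of 143, and the 13 include the 3 sites without a peak in replicate 1. Over all 1539 combined sites they were 121 and 136.

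Where both replicates had a peak, they placed it nearly alike. The median distance between the midpoints of the best-ranked overlapping peaks was 31.8 bp in the left domain and 23.5 bp in the right domain, against 26.5 bp elsewhere on IV and 27 bp on the other chromosomes. The upper quartiles were 53.2 and 50.5 bp, against 67.2 bp elsewhere on IV. The left domain thus had the largest of these medians and the right domain the smallest.

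In the other direction, most top replicate peaks on IV were retained in the combined list. That list was combined from these same replicates, so overlap between them is built in. Shares over all chromosomes are not given here. Of 258 top peaks of replicate 1 on IV, 203 (78.7%, interval 73.2 to 83.5%) overlapped a combined site, as did 207 of 255 (81.2%, 75.8 to 85.8%) in replicate 2. In replicate 1 the share was 86.8% in the left domain (71.9 to 95.6%) and 82.6% in the right domain (71.6 to 90.7%), against 74.8% elsewhere (67.1 to 81.5%). In replicate 2 it was 85.7% and 81.8%, against 79.4% elsewhere. Only 1 absent peak of each replicate, in the right domain, had a top peak of the other replicate over it. Top peaks of replicate 1 had a top peak of replicate 2 over them in 76.3% of cases in the left domain (59.8 to 88.6%) and in 63.8% in the right domain (51.3 to 75%), against 54.3% elsewhere (46 to 62.4%). For top peaks of replicate 2 the reverse shares were 71.4% in the left domain (55.4 to 84.3%) and 57.1% in the right domain (45.4 to 68.4%), against 60.3% elsewhere (51.6 to 68.6%), so the right domain and elsewhere changed places with the direction of the comparison.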

How the data were processed

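Per the file headers, the authors' deposited peak lists are on build WormBase WS220 and their source field names SPP, a peak caller, followed by IDR, a filter on reproducible rank. Each record gives positions and a score, the authors' own value, whose scale is not stated. How the authors aligned reads, set thresholds, used input and combined the replicates is not given in the sources used here. Both replicate lists hold 30000 peaks. Peaks were ranked by score and then by peak number; 856 combined peaks tie at the highest score, 1154 in replicate 1 and 681 in replicate 2. Lists were compared at 1539 peaks, counting overlap of at least 1 bp and the best-ranked overlapping peak. The end of IV was set to 17492158, where the last replicate peak stops. Intervals are exact Poisson, conditional binomial, Clopper-Pearson or order-statistic intervals at 95%, and no test was run. The members, the domain windows and the rule for named sites (the 5 best-ranked per region, the 5 largest clusters, the 5 fullest windows with ties) were chosen with earlier results of these data known. Functions were checked on simulated lists. The software was scipy 1.17.1, pandas 2.3.3, numpy 2.4.6 and matplotlib 3.10.9 under Python 3.11.15. The gene table, of assembly WBcel235, served only for counts of genes per chromosome. Genes at sites and site sequences were not analysed here.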

Additional observations from a re-analysis of the deposited data

How the results depend on the processing

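Of 159 alternative values for the regions of IV, 135 stayed within the main value's range and 24 did not. That range was the 95% interval, or 1 SD for ratios averaged over replicates. For those 24 the cause was not tested except where stated. An averaged ratio with 1 replicate left out cannot leave 1 SD, so it stayed by construction and says nothing on stability. Narrowing the windows by 500 kb, with the trimmed stretches counted as elsewhere, gave a left-domain density ratio of 0.84. In the narrowed left domain 64.7% of sites were in the top list of replicate 1, with a median rank there of 1157. Merging within 1 kb gave 8.7% wide sites in the right domain, by construction, and clustered shares of 14.5% there and 20.5% elsewhere. With highest-score sites only, fewer by construction, the median gap was 60.8 kb in the right domain and 61.1 kb elsewhere, and 15.9% were clustered in the right domain; top-list shares in replicate 2 were 100% in both domains and 91.7% elsewhere, and 94% elsewhere in replicate 1. Chains of 2 kb gave clustered shares of 15, 20.5 and 18.2% for the left domain, right domain and elsewhere, and chains of 10 kb 39.2% elsewhere. Reciprocal overlap of 50% gave top-list shares in replicate 2 of 67.5% (left) and 67.9% (right), and 60.3% (right) in replicate 1. At 3000 peaks these were 91% (right) and 90.9% (elsewhere) in replicate 1, and 96.2% and 89.5% in replicate 2. With 1 replicate left out, the top 1539 peaks of the other were used, and no combined list was rebuilt. The density ratios are therefore those already given for each replicate. They ran from 1.16 to 1.42 in the left domain and from 1.50 to 1.86 in the right domain. Joining overlapping entries was added after seeing the data and left each value within its interval. No paired analysis was possible because no peak list belongs to the input samples. The left-domain median gap, 25.3 kb, was 43.1 kb with wider and 62.7 kb with narrower windows, within its wide interval but above the value elsewhere. Read depth is unknown, so which sites it limits cannot be said.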
